A study of Homo sapiens with 9 samples.

Results

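Long noncoding RNAs linked to p53 were followed by name, MIR34AHG, LNCTAM34A, TP53TG1, NEAT1, PVT1 and LINC-PINT, and all 6 were found among the 78986 genes of the deposited count table. They were chosen by name for their known link to p53, by a rule that uses no measured value, but with earlier results of these data known. RNA-seq was performed on stable HEK293T lines, human embryonic kidney cells, that expressed WT p53, G245S p53 or R273H p53, with 3 libraries of each line labelled as replicates. The labels give the line as HEK 293 and its culture as HEK293T. All 3 lines had been made with a p53 lentivirus and kept in puromycin, no cloning step is described, and every line also carried the SV40 large T antigen of HEK293T cells, a viral protein that binds and inactivates p53, so no library lacked p53 or came from untransduced cells. The p-values measure the spread between libraries labelled as replicates of 1 line per genotype. A difference between lines made separately cannot be told apart from a difference between p53 forms.

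The transcription factor p53 binds DNA through its central domain and switches on genes that halt the cell cycle or start cell death, and G245S and R273H are recurrent tumour mutations of that domain. MIR34AHG is the host transcript of the microRNA miR-34a, a textbook p53 target that lowers mRNAs of the cell cycle and of growth signalling. LNCTAM34A starts beside it on the opposite strand and is known as an antisense regulator of miR-34a expression, TP53TG1 is a p53-induced RNA, NEAT1 is the scaffold of nuclear paraspeckles, PVT1 lies next to MYC, and LINC-PINT is a p53-induced RNA linked to the Polycomb repressive complex PRC2.

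The sequences behind the MIR34A locus are shown because the changes that passed the test among the 6 RNAs were in the pair of transcripts that start there. Mature microRNAs are given 5′ to 3′ from RefSeq (GRCh38.p14) with the seed, bases 2 to 8, in capitals. The miR-34a-5p sequence lies on chromosome 1, 9151735 to 9151756, minus strand, inside an exon of MIR34AHG, and miR-34b-5p, its relative from another locus on chromosome 11, is shown for its different seed frame. The third sequence is the plus strand of chr1:9182139-9182168 (GRCh38.p14), with an exact pair of consensus p53 half-sites in capitals, 10 bases each with no base between them.
miR-34a-5p: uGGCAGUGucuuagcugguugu
miR-34b-5p: uAGGCAGUgucauuagcugauug
p53 half-site pair at LNCTAM34A: gctcgGAACAAGCCCAGGCAAGCCCaggca

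The half-site pair ended 41 bases upstream of the RefSeq start of LNCTAM34A and lay 175 bases downstream of that of MIR34AHG, whose start is 134 bases away on the other strand. In the annotation used for counting, its 20 bases were exonic in both genes. Promoter windows of 300 bases, from 250 before to 50 after a RefSeq start, were held for 4 of the 6 RNAs, and those of MIR34AHG, TP53TG1 and LINC-PINT held no exact half-site. The p53 half-site consensus is its own reverse complement, so a match counts for both strands. At least 1 exact half-site was found in 6.63% of 35116 windows, and 2 within 13 bases of each other in 10 windows (0.0285%). Besides LNCTAM34A, 9 genes held such a pair, of which 4 were expressed enough to be tested. Of those 4, DDB2, a DNA repair gene, fell in both mutants (log2 fold change −1.39 in G245S, adjusted p = 0.00018, and −1.62 in R273H, adjusted p = 3.16e-05, edgeR quasi-likelihood test), and PURPL, DYNC2H1 and MCC did not pass. A match to the consensus is a description of the letters and not evidence of binding.

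MIR34AHG (ENSG00000228526) spans 9139555 to 9202826 on the minus strand of chromosome 1 (GRCh38), and LNCTAM34A (ENSG00000234546) spans 9181588 to 9198023 on the plus strand, wholly within it. Their annotated exons overlapped over 1627 bases, 15.5% of the exon bases of MIR34AHG and 21.5% of those of LNCTAM34A, and reads were counted by strand. The whole 110-base MIR34A hairpin lay in a MIR34AHG exon, 30561 bases from the RefSeq start of the host. The table's own entry for the MIR34A hairpin was at 0 in all 9 libraries, as were MIR34B, MIR34C and their host MIR34BHG. The libraries were made from mRNA and not from small RNA, so the entries say nothing about mature miR-34.

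**Figure D1:**
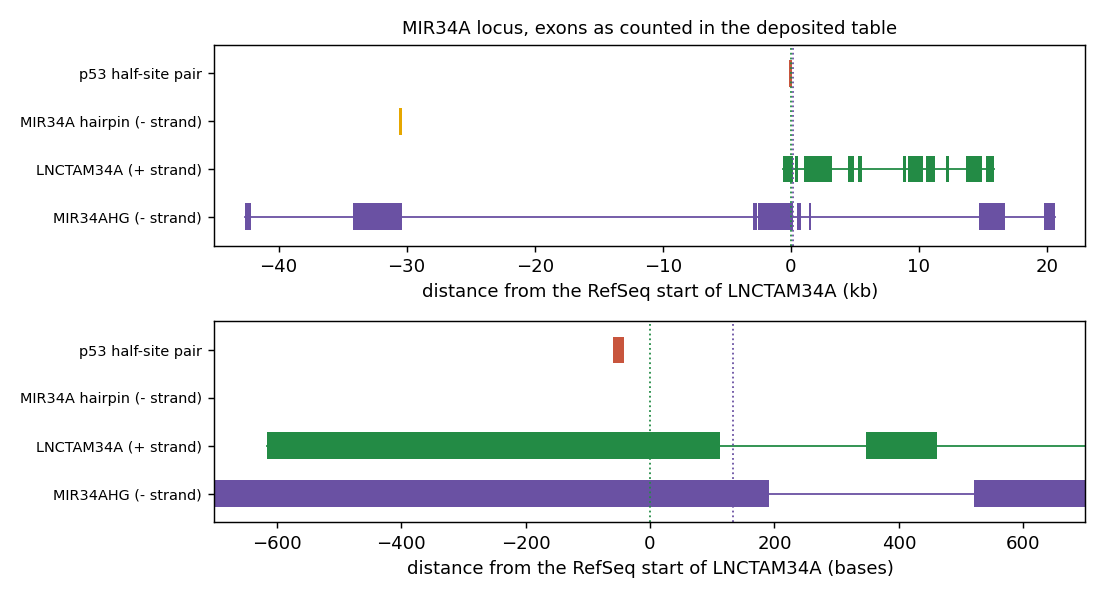
Map of the MIR34A locus by distance from the RefSeq start of LNCTAM34A, in kb (top) and in bases (bottom); boxes are exons as counted, drawn at a minimum width in the upper panel, and dotted lines are the RefSeq starts of LNCTAM34A (green) and MIR34AHG (purple). The p53 half-site pair lies between the hairpin and most exons of LNCTAM34A, 41 bases before the green line.

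The libraries used in the fits held 7325514 to 9667306 counts. WT replicate 3 held 1486315, under 0.5 times the median of the other 8, and was left out of the fits on depth alone. The authors also left 1 WT replicate out of their RNA-seq comparison, for its sample quality and low reads, without giving its number. It also stood apart from the other 8 libraries in a list of epithelial markers. KRT19, an epithelial keratin, was at 33.7 CPM in it against 0.258 to 1.37 in the others. EPCAM, an epithelial adhesion protein, was at 14.1 CPM against 0.739 to 3.42. KRT8 was at 54.8 CPM in it against 9.65 to 12.1, KRT18 at 161 CPM against 58.8 to 68.8 and CDH1 at 3.51 CPM against 0.683 to 1.41, so 5 of the 6 epithelial markers were highest there, CDH2 being the exception at 70.3 CPM against 75.8 to 84.0. Of markers of other cell types, ALB, a liver gene, held 4 counts in it (2.81 CPM against at most 0.238), COL1A1 was within the range of the others, and PTPRC, PECAM1 and DCN held 1 count each. Levels are in CPM, that is, counts relative to library size with TMM factors, and 3 counts, taken as the floor of detection, were worth 0.306 to 0.410 CPM in the fitted libraries and 2.11 CPM in WT replicate 3. MIR34AHG was under 3 counts in 1 library, R273H replicate 2. LNCTAM34A was under 3 counts in 4 libraries, G245S replicate 3 and all 3 R273H replicates. The other 4 RNAs were at or above 3 counts in every library.

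The first question was whether the RNAs of the MIR34A locus differed between cells expressing mutant and WT p53. MIR34AHG and LNCTAM34A were both lower in every mutant library than in both WT libraries fitted, and both fell in R273H past an adjusted p of 0.05. Neither passed that threshold in G245S. In bulk RNA, fewer cells making a transcript and less transcript per cell cannot be told apart.

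Across all genes, 0.137% of the 16022 tested in R273H were called (22 genes), 0.112% being lower (18 genes), and 0.126% of the 15893 tested in G245S (20 genes), 0.107% being lower (17 genes). Among the 6 RNAs, 2 were called in R273H, both lower, and 0 in G245S by edgeR or by DESeq2, where MIR34AHG and LNCTAM34A had an unadjusted edgeR p under 0.05, as did 6.66% of all genes tested (6.11% in R273H). All mutant libraries lay below both WT libraries for 10.8% of genes in G245S and 10.5% in R273H. Both RNAs of the locus passed the low-count filter through their WT libraries, and for such genes a difference is built into passing, so their count among the 6 supports nothing further.

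MIR34AHG was at 31 and 37 counts in WT replicates 1 and 2, or 3.56 and 4.75 CPM. It was at 21, 6 and 4 counts in G245S replicates 1 to 3 (2.14, 0.773 and 0.492 CPM) and at 6, 2 and 12 counts in the R273H replicates (0.691, 0.273 and 1.43 CPM). The groups did not overlap: the highest mutant library, G245S replicate 1, stayed below the lower WT library. The WT mean was 4.16 ± 0.843 CPM (SD, n = 2), against 1.14 ± 0.882 CPM for G245S and 0.797 ± 0.584 CPM for R273H (SD, n = 3 each). In WT replicate 3, 6 counts gave 4.22 CPM (95% exact Poisson interval 1.55 to 9.18), between the other WT libraries.

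The fitted log2 fold change of MIR34AHG was −2.32 in R273H (standard error 0.405, 95% interval −3.18 to −1.45, edgeR adjusted p = 0.032). It was −1.77 in G245S (standard error 0.419, interval −2.67 to −0.87), with an unadjusted edgeR p of 0.000856 and an adjusted p of 0.228. Summed counts were 68 in the WT libraries, 31 in G245S and 20 in R273H, and after scaling the ratio of WT to mutant was 3.42 (95% exact conditional interval 2.21 to 5.41) for G245S and 5.03 (3.02 to 8.75) for R273H, intervals that cover counting error only. Single libraries decided the calls. Without G245S replicate 1 the change in G245S was −2.68 with an adjusted p of 0.019 (edgeR). The R273H call was lost when WT replicate 2 was dropped (−2.10, edgeR adjusted p = 0.259), as it was when R273H replicate 1 (−2.21, 0.0883) or R273H replicate 2 (−1.95, 0.089) was dropped and when WT replicate 3 was added (−2.32, 0.0552). Over all 16 alternatives the adjusted edgeR or DESeq2 p of MIR34AHG ran from 6.24e-09 to 0.736 in R273H and from 2.35e-05 to 0.969 in G245S. Both lowest values came from the edgeR fit without the low-count filter, which called 93 genes in R273H and 144 in G245S.

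LNCTAM34A was at 26 and 24 counts in the WT libraries fitted, or 2.99 and 3.08 CPM. It was at 9, 3 and 1 counts in G245S (0.917, 0.387 and 0.123 CPM) and at 1, 2 and 2 counts in R273H (0.115, 0.273 and 0.238 CPM). All 6 mutant libraries were below both WT libraries, and G245S replicate 1 was again the highest of them. The WT mean was 3.04 ± 0.0677 CPM (SD, n = 2), against 0.476 ± 0.404 CPM for G245S and 0.209 ± 0.0829 CPM for R273H (SD, n = 3 each), the last with every library under the floor. WT replicate 3 held 5 counts, 3.51 CPM (1.14 to 8.20).

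The log2 fold change of LNCTAM34A was −3.79 in R273H (standard error 0.462, 95% interval −4.78 to −2.80, edgeR adjusted p = 0.00133), the ninth gene by p among 16022 tested. It was −2.55 in G245S (standard error 0.471, interval −3.56 to −1.54), with an unadjusted edgeR p of 9.31e-05 and an adjusted p of 0.0673. Of the summed counts, 50 were in WT, 13 in G245S and 5 in R273H, and the scaled ratio of WT to mutant was 6 (3.21 to 12.0) for G245S and 14.8 (5.94 to 47.6) for R273H. Without G245S replicate 1 the change in G245S was −3.51 with an adjusted p of 0.019 (edgeR). The R273H call was lost only with WT replicates 1 and 3 as the control (−3.81, adjusted p = 0.0544, edgeR) among 16 alternatives, whose adjusted p ran from 8.79e-12 to that value, with −3.80 and 0.0026 when all 3 WT libraries were used. In G245S the adjusted p ran from 3.89e-07 to 0.571. The lowest value in each mutant again came from the edgeR fit without the filter.

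**Figure D2:**
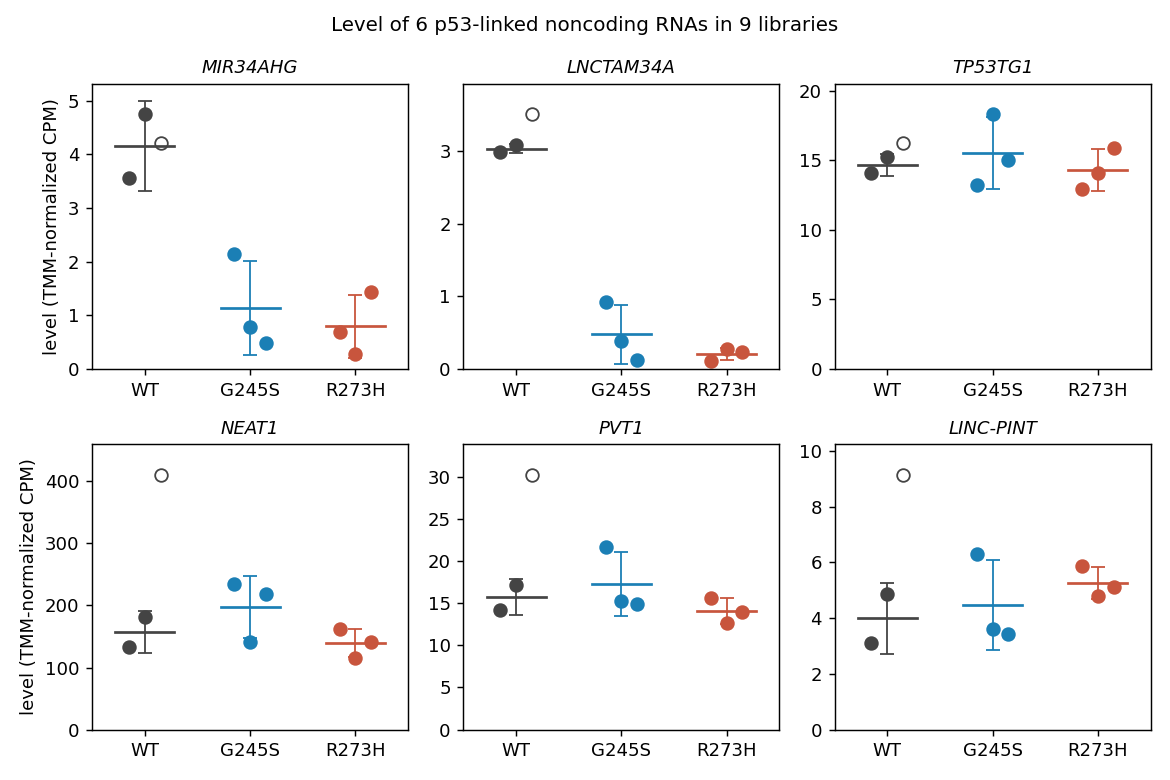
TMM-scaled CPM of each RNA in each of the 9 libraries, by p53 form; filled points are the libraries in the fits, the open point is WT replicate 3, and bars are the mean ± SD of the fitted libraries. All 6 mutant points of MIR34AHG and LNCTAM34A sit below the WT points, and LNCTAM34A, NEAT1, PVT1 and LINC-PINT are highest in the open WT point.

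The second question was whether the mutants differed from each other. MIR34AHG and LNCTAM34A did not pass the low-count filter when only mutant libraries were compared. In 1 fit of all 3 groups the log2 difference of R273H from G245S was −0.54 (95% interval −1.72 to 0.64, edgeR adjusted p = 0.996) for MIR34AHG and −1.24 (−2.78 to 0.31, adjusted p = 0.996) for LNCTAM34A. The intervals reach from a fall of over 1 log2 unit to a rise, so a call in R273H and none in G245S does not show that the mutants differ. A difference between them was not detected with these counts and the spread between 3 libraries of each mutant.

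TP53TG1 (ENSG00000182165; chromosome 7, 87322943 to 87345596, minus strand) was at 14.1 and 15.2 CPM in WT. It was at 13.2, 18.3 and 15 CPM in G245S and at 12.9, 14.1 and 15.9 CPM in R273H. The 3 groups overlapped, and WT replicate 3, at 16.2 CPM, lay within the range of the others. Its log2 fold change was 0.08 in G245S (95% interval −0.24 to 0.40, edgeR adjusted p = 0.959) and −0.03 in R273H (−0.32 to 0.26, adjusted p = 0.997). Of the 6 RNAs it had the smallest fitted changes against WT, with intervals that reached 0.40 upward and 0.32 downward on the log2 scale. CROT, a peroxisomal carnitine acyltransferase gene that begins 68 bases from TP53TG1 on the other strand, had values of −0.35 and −0.05, neither past the threshold.

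NEAT1 (ENSG00000245532; chromosome 11, 65422774 to 65445540, plus strand) was at 133 and 181 CPM in WT. It was at 235, 141 and 218 CPM in G245S and at 162, 116 and 141 CPM in R273H. G245S held the highest of these libraries and R273H the lowest, but each group overlapped WT. The G245S change was 0.34 on the log2 scale (standard error 0.180, 95% interval −0.04 to 0.73, edgeR adjusted p = 0.777) and −0.16 in R273H (−0.46 to 0.13, adjusted p = 0.97).

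NEAT1 had the largest difference between the mutants among the 4 RNAs tested there, −0.51 from G245S to R273H (standard error 0.154, 95% interval −0.84 to −0.18), with an unadjusted edgeR p of 0.00477 and an adjusted p of 0.921. In that comparison edgeR called 0 of 15614 genes (0%), 741 (4.75%) had an unadjusted p under 0.05, and DESeq2 called 1. Without G245S replicate 2, whose 141 CPM was the lowest of its group, the difference was −0.70 with an adjusted p of 0.0488 (edgeR). Over 14 alternatives the adjusted p ran from 5e-06, in the edgeR fit without the filter, to 1. The sign of the NEAT1 change in G245S turned with the WT libraries used: it was −0.21 with all 3 of them, WT replicate 3 being at 410 CPM, and the R273H change was then −0.71 (edgeR adjusted p = 0.898).

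PVT1 (ENSG00000249859; chromosome 8, 127794513 to 128188202, plus strand) was at 14.2 and 17.2 CPM in WT, at 21.7, 15.2 and 14.9 CPM in G245S and at 15.6, 12.6 and 14.0 CPM in R273H. The groups overlapped, with the highest fitted library again G245S replicate 1, and WT replicate 3 was at 30.2 CPM. Its log2 fold change was 0.16 in G245S (95% interval −0.21 to 0.53, edgeR adjusted p = 0.917), −0.15 in R273H (−0.45 to 0.15, adjusted p = 0.97) and −0.31 from G245S to R273H (−0.64 to 0.01, adjusted p = 0.994). MYC, the growth-promoting transcription factor gene upstream of PVT1 and itself a reported miR-34a target, had values of 0.00 in G245S and 0.04 in R273H. The 5 microRNA entries within PVT1, MIR1204 to MIR1208, were at 0 in all 9 libraries.

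LINC-PINT (ENSG00000231721; chromosome 7, 130791264 to 131110176, minus strand) was at 3.10 and 4.88 CPM in WT. It was at 6.32, 3.61 and 3.45 CPM in G245S and at 5.88, 4.78 and 5.11 CPM in R273H, and the groups overlapped. Its log2 fold change was 0.21 in G245S (95% interval −0.44 to 0.86, edgeR adjusted p = 0.94) and 0.42 in R273H (−0.09 to 0.92, adjusted p = 0.915). These are the widest intervals of the 4 RNAs outside the MIR34A locus. WT replicate 3 was at 9.14 CPM (4.87 to 15.6), above both WT libraries fitted.

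**Figure D3:**
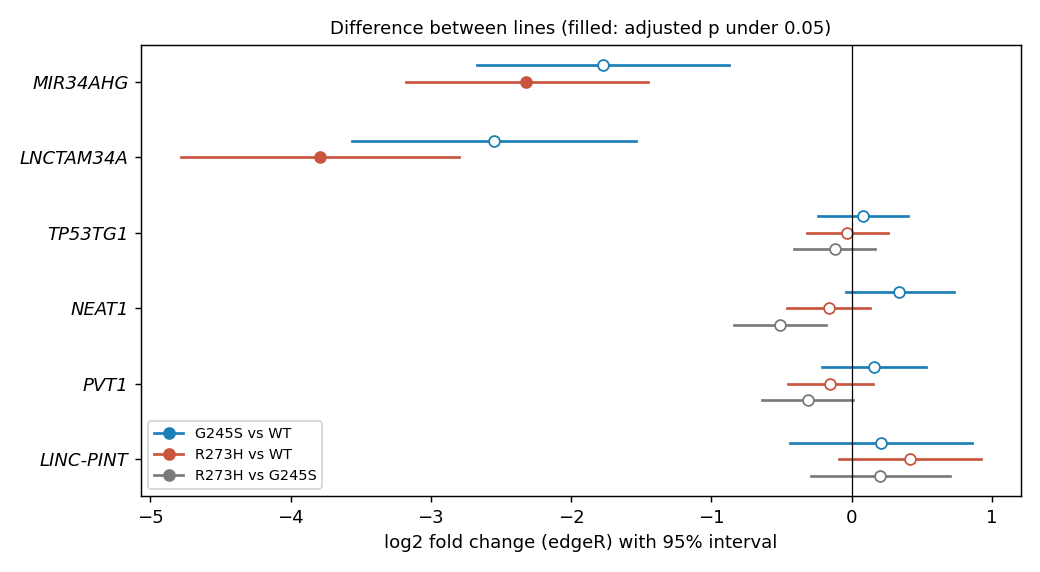
Log2 fold change of each RNA in each comparison with its 95% interval from the edgeR fit, and filled points where the adjusted p was under 0.05. MIR34AHG and LNCTAM34A in R273H are past the threshold, at −2.32 and −3.79, and the intervals of TP53TG1, PVT1 and LINC-PINT include 0 in every comparison.

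Per kb of annotated exon, NEAT1 was the most abundant of the 6 in WT cells at 6.90 ± 1.50 CPM per kb (SD, n = 2), followed by TP53TG1 at 2.19 ± 0.109 CPM per kb. PVT1, LNCTAM34A and MIR34AHG followed at 0.423, 0.402 and 0.396 CPM per kb, levels that do not differ beyond their spread, and LINC-PINT was last at 0.0953 CPM per kb. In R273H, NEAT1, TP53TG1 and PVT1 kept that order at 6.14, 2.14 and 0.377 CPM per kb. LINC-PINT at 0.125 ± 0.0134 CPM per kb and MIR34AHG at 0.0759 ± 0.0556 CPM per kb followed and did not differ beyond their spread, and LNCTAM34A was at 0.0276 ± 0.0110 CPM per kb (SD, n = 3). In G245S, MIR34AHG at 0.108 ± 0.0839 CPM per kb and LINC-PINT at 0.106 ± 0.0385 CPM per kb did not differ beyond their spread, and LNCTAM34A was at 0.0630 ± 0.0535 CPM per kb. Exon length here is the union over all annotated isoforms, so it overstates the length of genes with many isoforms, such as LINC-PINT. Counts were made per gene, so isoforms of NEAT1 and of the other RNAs were not told apart.

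G245S replicate 1 was the highest G245S library for 5 of the 6 RNAs, TP53TG1 being the exception. It was also the highest of its group for 39.5% of the 2233 long noncoding RNAs tested and for 32.1% of all 15893 genes. Long noncoding RNAs took 2.66% to 2.86% of counts in the 8 fitted libraries and 3.37% in WT replicate 3. Mitochondrial genes took 8.34% of counts in G245S replicate 1, the highest share of the 9 libraries, against 4.47% and 5.71% in the WT libraries fitted, 4.83% to 6.86% in the other mutant libraries and 7.02% in WT replicate 3. The part of these library differences in the results was not tested.

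Genes within 100 kb of the 6 RNAs were compared next. Besides MIR34AHG and LNCTAM34A themselves, 22 such genes were tested against WT in each mutant and none was called by edgeR or DESeq2, with 1 gene in G245S and 2 in R273H at an unadjusted edgeR p under 0.05. Around the MIR34A locus, GPR157, an orphan receptor gene 10453 bases from MIR34AHG, was at 0.05 in G245S and 0.24 in R273H on the log2 fold scale. H6PD, an enzyme of the endoplasmic reticulum, was at 0.09 and −0.20, and SPSB1, a ubiquitin ligase adaptor, at 0.02 and 0.32. Within this distance of the locus, MIR34AHG and LNCTAM34A were the genes that passed the threshold, both in R273H.

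Around NEAT1, 12 genes were tested and none was called. MALAT1, the abundant nuclear RNA 52066 bases downstream, was at 0.19 in G245S, −0.10 in R273H and −0.29 from G245S to R273H (edgeR adjusted p = 0.994). Its antisense transcript TALAM1 was at −0.67 in G245S and −0.02 in R273H. The lowest value was that of FAUP4, −0.98 in R273H (edgeR adjusted p = 0.775), and the protein-coding genes DPF2, FRMD8, TIGD3, SLC25A45 and LTBP3 lay between −0.05 and 0.31 in both mutants. ENSG00000310127, which overlaps PVT1 on the same strand, was at −0.40 and −0.37 (edgeR adjusted p = 0.663 and 0.794). Around LINC-PINT, MKLN1 was at 0.18 and −0.01, KLF14 at −0.31 and 0.19, and LINC00513 at 0.01 and −0.32.

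The other long noncoding RNAs linked to p53 were taken from a list of 20, of which 19 were in the table and 14 were tested in G245S and 13 in R273H. None was called in either mutant by edgeR or DESeq2, and 2 in each had an unadjusted edgeR p under 0.05. The median log2 fold change was −0.012 in G245S and −0.035 in R273H, beside 0.0034 and 0.0023 over all genes tested. PURPL, a p53-induced RNA whose promoter also held a half-site pair, came nearest to the threshold. It was at 29.4 and 38.3 CPM in WT, at 36.1, 24.4 and 30.0 CPM in G245S and at 23.7, 21.2 and 19.6 CPM in R273H. All R273H libraries were below both WT libraries, with a log2 fold change of −0.65 (95% interval −0.92 to −0.37, edgeR adjusted p = 0.0872, DESeq2 adjusted p = 0.111), while G245S overlapped WT (−0.14, edgeR adjusted p = 0.912).

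Between the mutants none of the 13 tested was called by edgeR or DESeq2, but 6 had an unadjusted edgeR p under 0.05, beside 4.75% of all genes. The list's median was −0.228 from G245S to R273H, beside −0.0048 over all genes, and 10 of the 13 were lower in R273H. G245S replicate 1 was the highest of its group for 39.5% of the long noncoding RNAs tested and for 32.1% of all genes. Its part in the shift was not tested. All genes are not a baseline of long noncoding RNAs, and no median over all long noncoding RNAs was set beside the list. The shift is therefore not shown to be particular to RNAs linked to p53. PURPL was the lowest of them, −0.50 from G245S to R273H (95% interval −0.79 to −0.22, edgeR adjusted p = 0.921). GAS5, a growth-arrest RNA that hosts small nucleolar RNAs, was at −0.25 in G245S and −0.47 in R273H (edgeR adjusted p = 0.663 and 0.159). MIR17HG, the host of the miR-17-92 cluster, was at 0.47 in G245S (edgeR adjusted p = 0.24) and 0.12 in R273H. MEG3, an imprinted RNA, had the lowest value in G245S, −0.49, and the highest between the mutants, 0.87 from G245S to R273H (edgeR adjusted p = 0.994), and MIR22HG, the host of miR-22, the highest in both mutants, 0.70 and 0.40. PANDAR and LINC-ROR were at 0 counts in all 9 libraries.

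Reported targets of miR-34a were read as 30 mRNAs, of which 29 were tested. None was called in any comparison by edgeR or DESeq2, with 0 in G245S, 1 in R273H and 1 between the mutants at an unadjusted edgeR p under 0.05. The list's median change on the log2 scale was 0.013 for G245S and 0.031 for R273H, beside 0.0034 and 0.0023 over all genes, with 17 and 19 of the 29 above 0. PDGFRA, a growth factor receptor, had the highest value in both mutants, 0.72 in G245S and 1.30 in R273H (edgeR adjusted p = 0.871 and 0.798). Its WT libraries were at 0.46 and 2.7 CPM and its R273H libraries at 2.54, 7.11 and 2.02 CPM, so the groups overlapped. AXL, a receptor tyrosine kinase, was lowest in G245S at −0.44, and CCNE2, a cyclin, in R273H at −0.25. From G245S to R273H the adhesion receptor CD44 was highest at 0.77 (edgeR adjusted p = 0.921) and the transcription factor KLF4 lowest at −0.36.

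Paraspeckle proteins, which assemble on NEAT1, gave 14 tested genes and PRC2 subunits, linked to LINC-PINT, gave 11. None of either list was called in any comparison by edgeR or DESeq2, and none had an unadjusted edgeR p under 0.05. Medians were 0.020 and −0.035 for paraspeckle proteins and 0.007 and −0.013 for PRC2 in G245S and R273H. Among paraspeckle proteins the extremes against WT were PSPC1 at −0.22 and RBM14 at 0.17 in G245S, and NONO at −0.21 and EWSR1 at 0.14 in R273H. In PRC2 they were the catalytic subunit EZH1 at −0.18 and MTF2 at 0.15 in G245S, and EZH1 at −0.22 and RBBP7 at 0.11 in R273H. From G245S to R273H the extremes were CPSF7 at −0.16 and PSPC1 at 0.14, and SUZ12 at −0.09 and EED at 0.12.

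**Figure D4:**
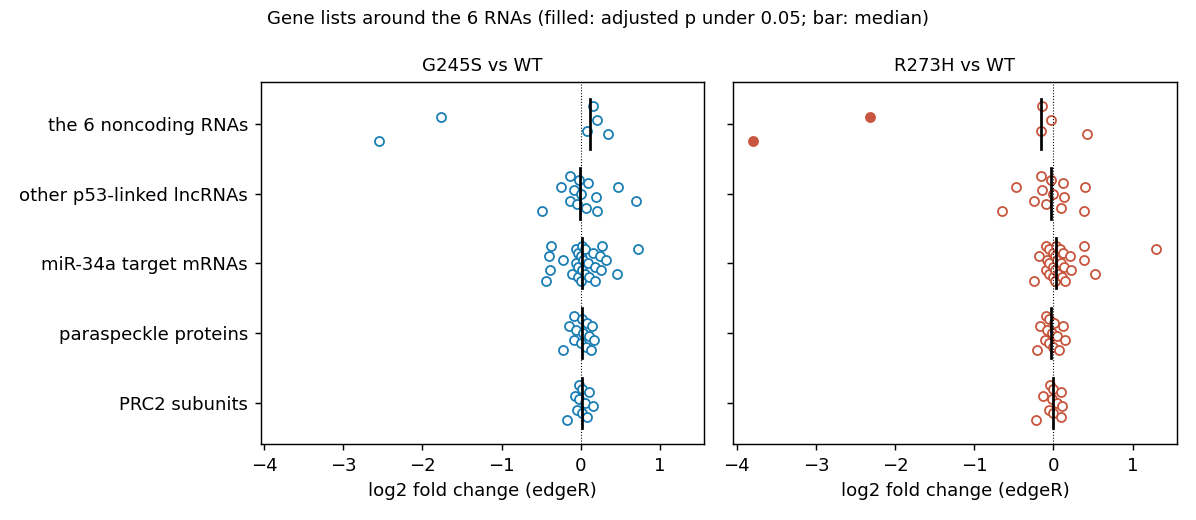
Log2 fold change (edgeR) against WT of the 6 RNAs and of the tested genes of 4 lists, with G245S at left and R273H at right; points are genes, filled where the adjusted p was under 0.05, and bars are medians. The filled points are LNCTAM34A and MIR34AHG in R273H, and the medians of the 4 lists lie between −0.035 and 0.031.

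The genes whose log2 CPM followed each RNA most closely over the 8 fitted libraries were read among 11631 or 11632 genes with a mean of at least 5 CPM, as a description only, since the libraries share their groups and depths. LNCTAM34A was followed by MSL3 (Pearson's r = 0.991), LIG1 (0.970) and ESCO2 (0.969), and MIR34AHG by DCUN1D4 (0.956), MYPOP (0.954) and RTKN2 (0.953). NEAT1 was followed by ENSG00000288899 (0.989), SETD5 (0.987) and ENSG00000288066 (0.979), and PVT1 by ENSG00000291091 (0.983), POGZ (0.981) and DANT2 (0.965). TP53TG1 was followed by ZNF740 (0.923) and GPR89B (0.907), and LINC-PINT by AMDHD2 (0.939), OSR2 (0.932) and FRG1BP (0.925). MIR34AHG, LNCTAM34A and LINC-PINT were under 5 CPM on average and so were not among the genes compared.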

How the data were processed

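RNA-seq counts of 9 libraries, 3 each of WT, G245S and R273H p53, were analysed. The authors filtered reads with fastp 0.24.0, aligned them to GRCh38 with STAR 2.7.11, removed duplicates by molecular identifier and counted them with featureCounts (Subread 2.1.1) by strand, sharing multi-mapping reads as fractions, and deposited expected counts without normalization. The deposited CPM columns were not used. Values were rounded to whole counts. Of the 6 RNAs, TP53TG1, NEAT1, PVT1 and LINC-PINT held fractional values in some libraries, so part of their reads is shared with other genes.

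The fits used 8 libraries, since WT replicate 3 had a total under 4096044 counts. In R 4.3.3, edgeR 4.0.16 was run with filterByExpr, TMM scaling and its quasi-likelihood test, and p-values were adjusted by Benjamini-Hochberg over every gene tested, with calls at 0.05. DESeq2 1.42.0, data.table (1.17.8), Python 3.11.15, pandas 2.3.3 and matplotlib 3.10.9 were also used. The scripts were tested on simulated counts. Alternatives covered the WT libraries used, leaving out each replicate, scaling, DESeq2, the filter, 1 fit of all 3 groups, a replicate term and unrounded counts.

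The genes named were the 6 RNAs, the tested genes within 100 kb, the highest and lowest gene of each list and any list gene past the threshold, and the 3 genes most like each RNA among those at 5 CPM or more. GAS5, MIR17HG, UCA1, DDB2, the other genes with a half-site pair and the genes at 0 were named after their values were seen. Some genes that the rule selects are not reported here. The RNAs and lists were chosen with earlier results of these data known. PURPL was matched to the list name LINC01021 by its RefSeq synonym. Sequences are from RefSeq, and its windows covered 27305 genes. Poisson and count-ratio intervals and floors cover counting error only, while the intervals of fold changes come from the edgeR fit and include the spread between libraries.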

Additional observations from a re-analysis of the deposited data

Results flagged for a closer look

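In WT replicate 3, the shallow library outside the fits, the counting intervals of 2 of the 6 RNAs lay above the values of every other library. LNCTAM34A at 3.51 CPM (1.14 to 8.20) and LINC-PINT at 9.14 CPM (4.87 to 15.6) were also highest there. Their intervals reached below the highest fitted library, at 3.08 and 6.32 CPM. NEAT1 was at 410 CPM (95% exact Poisson interval 377 to 444) against at most 181 CPM in the other WT libraries and 235 CPM in any of the 8 libraries fitted. PVT1 was at 30.2 CPM (21.9 to 40.7) against 17.2 CPM and 21.7 CPM. The counting error of those other libraries was not included, and for PVT1 the interval began only just above 21.7 CPM. The share of all genes that lay above the other libraries in the same way is not given here. The high values are therefore not shown to be particular to NEAT1 and PVT1. The same library had the high keratin and EPCAM levels given above, and their part in these values was not tested. UCA1, a carcinoma-linked RNA named here after its values were seen, held 5 counts in it and at most 1 in each of the other 8.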

How the results depend on the processing

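MIR34AHG and LNCTAM34A were lower than WT in both mutants under all 16 alternatives each. The R273H call of LNCTAM34A held in 15 of them (log2 fold change −4.00 to −3.50), failing with WT replicates 1 and 3 (−3.81), and that of MIR34AHG held in 8. It was lost with all 3 WT libraries (−2.32), WT replicates 2 and 3 (−2.47), WT replicates 1 and 3 (−2.17), library-size scaling (−2.29) and 1 fit of all 3 groups (−2.32), with adjusted p between 0.0552 and 0.736. In G245S, calls appeared without the filter (−1.76 for MIR34AHG, −2.54 for LNCTAM34A) and, for LNCTAM34A, in 1 fit of all 3 groups (−2.56). Leaving out 1 library gave −2.68 to −1.43 for MIR34AHG and −3.51 to −2.13 for LNCTAM34A in G245S, and −3.01 to −1.95 for MIR34AHG in R273H. With 1 WT library left, it is assumed to vary like the mutant libraries. The cause of these changes was not tested.

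Adding WT replicate 3 turned the sign of small changes in G245S and enlarged those of NEAT1 and PVT1 in R273H, none past the threshold. With all 3 WT libraries, WT replicates 2 and 3 and WT replicates 1 and 3, NEAT1 was at −0.21, −0.52 and −0.38 in G245S and −0.71, −1.02 and −0.88 in R273H, and PVT1 at −0.02, −0.23 and −0.06 in G245S and −0.32, −0.54 and −0.37 in R273H. LINC-PINT was at −0.01 and −0.37 in G245S with the first 2 of these, and at −0.14 in R273H with WT replicates 2 and 3. Leaving out 1 library gave −0.04 to 0.19 for TP53TG1, 0.14 to 0.58 for NEAT1, −0.06 to 0.29 for PVT1 and −0.16 to 0.55 for LINC-PINT in G245S. It gave −0.12 to 0.04 for TP53TG1, −0.37 to 0.07 for NEAT1, −0.28 to −0.02 for PVT1 and 0.12 to 0.76 for LINC-PINT in R273H, and −0.22 to 0.01 for TP53TG1 and −0.70 to −0.36 for NEAT1 between the mutants. NEAT1 passed the threshold between the mutants without the filter (−0.52) and without G245S replicate 2.

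The number of genes called in G245S, 20, was 10 with all 3 WT libraries, 3 with WT replicates 1 and 3, 144 without the filter and 10 to 30 with 1 library left out, with the fewest without G245S replicate 3 and 13 without WT replicate 2. The 22 in R273H became 13 with WT replicates 2 and 3, 4 with WT replicates 1 and 3, 93 without the filter and 16 to 29 with 1 library left out. The 0 between the mutants became 125 without the filter, 1 in DESeq2, and 0 to 3 with 1 library left out, 3 without G245S replicate 2 and 1 without R273H replicate 3.

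Replicate numbers were not shown to pair the libraries. Between the mutants, the correlations of same-numbered deviations were 0.259, 0.373 and 0.013 for replicates 1 to 3. Of the 6 mutant libraries, 4 correlated best with their own number. Against WT the correlations ran from −0.268 to −0.079, but the deviations of 2 fitted WT libraries mirror each other and carry little information. With the replicate block the calls were 76, 47 and 59, MIR34AHG and LNCTAM34A in G245S passed at −1.44 and −2.14, and NEAT1 passed between the mutants at −0.50. With at most 12 counts per R273H library, the size of the changes at the MIR34A locus is limited by depth.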
